A study of Saccharomyces cerevisiae with 12 samples.

Results

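The genes described here are the mating-type specific genes of budding yeast, 9 of the 6002 nuclear protein-coding genes with a defined promoter. They were named by their known mating-type specificity, with earlier results of these data known, and no threshold on measured values entered the rule. Of them, 7 are a-specific (STE2, STE6, MFA1, MFA2, BAR1, AGA2 and ASG7) and 2 are alpha-specific (STE3 and SAG1). The assay was ATAC-seq, which uses a hyperactive transposase to insert sequencing adapters where DNA is accessible, and the data comprised 12 libraries of Saccharomyces cerevisiae BY4741. BY4741 is a haploid laboratory strain of mating type a in which HIS3, LEU2, MET17 (also called MET15) and URA3 are deleted in whole or in part, and all 4 groups share this background.

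The groups were BY4741 with the synthetic human locus in reversed sequence on a yeast artificial chromosome (HPRT1R YAC), with the forward locus on such a chromosome (HPRT1 YAC), with the reversed locus integrated on chromosome XI (HPRT1R integrated) and with the forward locus integrated there (HPRT1 integrated), with 3 libraries each. SC-Leu, which lacks leucine, was the medium of the YAC strains and YPD, a rich medium, that of the integrated strains, at 30 °C and for 6 h after dilution, so format and medium cannot be told apart. The labels do not say whether the 3 libraries of a group came from separate cultures, so the p-values reflect library-to-library spread, which may be technical.

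Yeast cells of the a type signal to alpha cells with the peptide a-factor and sense them through a receptor for alpha-factor. In a cells the a-specific genes are activated by Mcm1. In alpha cells the repressor alpha2 acts together with Mcm1 to shut them off, and the alpha1 protein turns on the alpha-specific genes. A haploid a strain lacks active alpha1 and alpha2, so it transcribes the a-specific and not the alpha-specific set.

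The promoter window ran from 500 bp before each gene's annotated start to 100 bp after it, and a promoter was counted as open in a library when the summit of a deposited peak lay in it. An open promoter is a peak call and not a transcript level, and the absence of a peak does not show closed chromatin. The lists held 913 to 1303 nuclear peaks per library, and 13.05% to 18.8% of all promoters were open in a library. The lowest called nuclear peak had 13 to 16 reads at its summit, depending on the library, and the median nuclear peak had 20 to 26 reads. Open promoters overlapped between any pair of libraries with a Jaccard index of 0.374 to 0.529, so no library duplicated another.

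The strain labels were checked at the deleted marker genes. Peaks lay over LEU2 (chromosome III, 91324 to 92418) in 6 of 6 YAC libraries and 0 of 6 integrated libraries, with fold enrichments of 2.49 to 4.24 over 7 peaks. SC-Leu medium selects for cells that carry LEU2. No peak overlapped URA3, MET17 or HIS3 in 12 of 12 libraries. With 63% of all promoters open in 0 libraries, this absence cannot show that the genes are deleted.

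Of the 7 a-specific genes 4 had a promoter peak in at least 1 library, and neither alpha-specific gene had one. Genes with no promoter peak in any library are called closed here only in that sense. STE2 was open in 11 of 12 libraries, STE6 and MFA2 in 5 each and MFA1 in 3. BAR1, AGA2, ASG7, STE3 and SAG1 were open in 0. Across all genes, 37% of promoters were open in at least 1 library and 63% in 0, so 4 of 9 members open and 5 closed lay near the shares of all genes. Being open in at least 11 libraries was less common, at 5.43% of all genes, and STE2 was the only member there. For at least 5 libraries the share of all genes was 16.9% and for at least 3 it was 22.7%.

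Counted over promoters and libraries, 24 of 84 a-specific pairs were open (28.6%), and 0 of 24 alpha-specific pairs. The share of a-specific promoters open in a library was 28.6% ± 10.6 (SD, n = 12), against 15.6% ± 2.04 of all genes in the same libraries. With so few genes this difference is a description, and STE2 alone gave 11 of the 24 open pairs. Each library had 1 to 3 a-specific promoters open. Exactly 1 was open in 3 libraries, 2 were open in 6 libraries and 3 were open in 3 libraries.

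**Figure D1:**
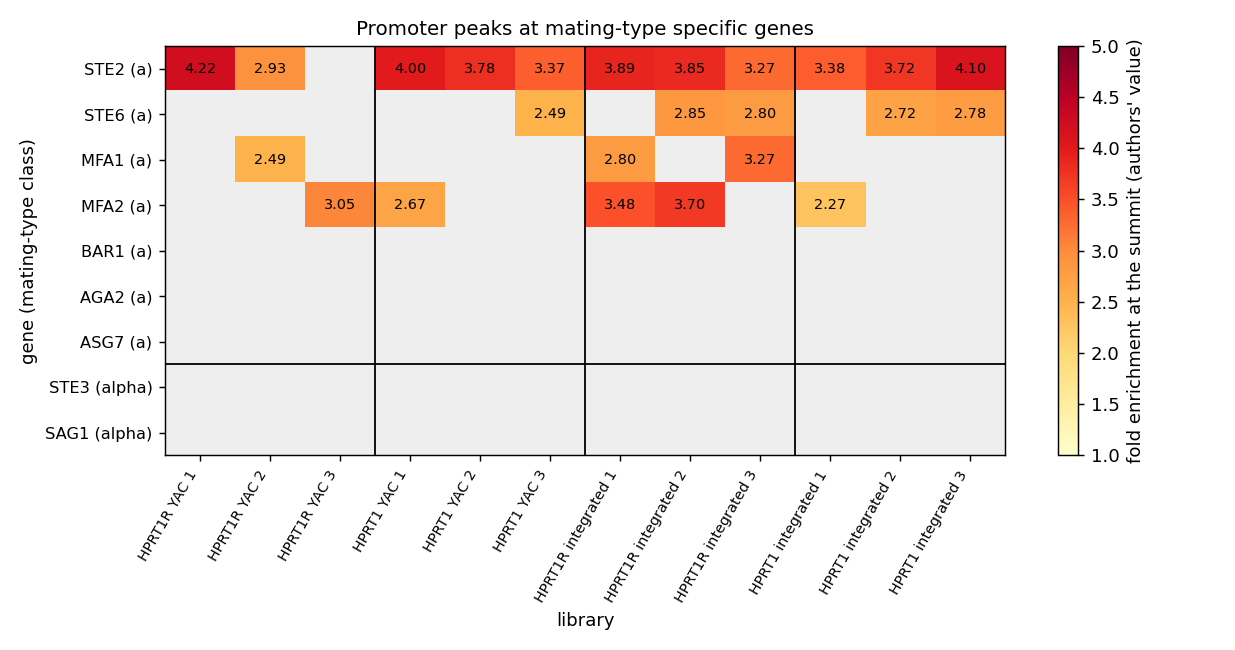
Fold enrichment at the promoter summit, as the authors' peak caller gave it, for each gene (rows) and library (columns); grey cells had no summit in the promoter, vertical lines separate the 4 groups and the horizontal line separates a-specific from alpha-specific genes. STE2 was filled in 11 of 12 libraries, and 5 genes, both alpha-specific ones among them, had no value in any library.

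STE2 (YFL026W, chromosome VI, 82580 to 83875, R64) encodes the receptor through which a cells sense alpha-factor. Its fold enrichment over local background, the authors' value for each peak, was 4.22 and 2.93 in HPRT1R YAC libraries 1 and 2, with no peak in library 3. In HPRT1 YAC libraries it was 3.999, 3.78 and 3.37. It was 3.89, 3.85 and 3.27 in HPRT1R integrated libraries. It was 3.38, 3.72 and 4.10 in HPRT1 integrated libraries. All groups overlapped, and the library without a peak had the shortest list, with 913 nuclear peaks.

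STE2 peaks were of ordinary height for their libraries. They had 19 to 29 reads at the summit (median 25), which was 5 to 13 reads above the lowest called peak of the same library, and 6 of 11 reached the library's median. Among the nuclear peaks of its own library, the STE2 peak lay between percentiles 23.2 and 77.3 by fold enrichment.

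STE2 shares its upstream region with GYP8 (chromosome VI, 80419 to 81912), a gene on the opposite strand for a GTPase-activating protein of Rab GTPases. The 667 bp between them held all 11 summits, at 268 to 434 bp upstream of STE2, and all 11 also lay in the promoter window of GYP8. The peak can therefore not be given to STE2 rather than GYP8. Of all open promoters, 48.9% had a summit that also lay in the window of another gene. With the window limited to 300 bp upstream and 50 bp downstream, STE2 was open in 4 libraries, because most of its summits lay farther out.

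STE3 (YKL178C, chromosome XI, 113215 to 114627) encodes the receptor for a-factor, which alpha cells use. It had no promoter peak in any of the 12 libraries, and its nearest summit lay at least 3786 bp from the gene start. STE2 was open and STE3 was not in 11 of 12 libraries, and the reverse held in 0 (p = 0.000977, adjusted p = 0.00703 over the 36 pairs of members, exact two-sided sign test over libraries). The a-specific genes BAR1, AGA2 and ASG7, also open in 0 libraries, gave the same p-value against STE2. Against a gene open in 0 libraries, the p-value depends only on the number of libraries with STE2 open. The test therefore restates that the peak shared by STE2 and GYP8 recurred over libraries, and shows no contrast between mating types.

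The a-factor genes MFA1 and MFA2, which encode near-identical precursors of the same pheromone, were open in some libraries each. MFA2 (YNL145W, chromosome XIV, 352414 to 352530) was open in 2 YAC and 3 integrated libraries. Its fold enrichment was 3.05 in HPRT1R YAC library 3 and 2.67 in HPRT1 YAC library 1. It was 3.48 and 3.70 in HPRT1R integrated libraries 1 and 2, and 2.27 in HPRT1 integrated library 1. The highest values and the lowest were from integrated libraries, and both YAC values lay between them. The 5 summits lay within 6 bp of each other, 281 to 287 bp upstream of the gene start, which was the narrowest range among the open members. Reads at the summit were 19 to 24, and 3 of 5 peaks reached the library's median. By fold enrichment the MFA2 peaks lay between percentiles 1.54 and 45.2 of their libraries. The lowest was that of HPRT1 integrated library 1, with 19 reads over a local background of 7.79. It lay 3 reads above the lowest called peak of that library.

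MFA1 (YDR461W, chromosome IV, 1385176 to 1385286) was open in 3 of 6 HPRT1R and 0 of 6 HPRT1 libraries. Its fold enrichment was 2.49 in HPRT1R YAC library 2, and 2.80 and 3.27 in HPRT1R integrated libraries 1 and 3. The summits lay 275 to 328 bp upstream with 16, 17 and 20 reads, all below the median of their libraries. Its neighbours CMI8 and MRPL28, the second a mitochondrial ribosomal protein gene, were open in 11 libraries from a shared peak 624 to 789 bp past the MFA1 start, with a fold enrichment of 3.10 to 6.07. Only HPRT1R integrated library 1 had both MFA1 and MFA2 open.

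STE6 (YKL209C, chromosome XI, 42423 to 46295) encodes the membrane transporter that exports a-factor. It was open in 1 of 6 YAC and 4 of 6 integrated libraries. Its fold enrichment was 2.49 in HPRT1 YAC library 3, 2.85 and 2.80 in HPRT1R integrated libraries 2 and 3, and 2.72 and 2.78 in HPRT1 integrated libraries 2 and 3. These values were low for their libraries, between percentiles 5.65 and 18.8. The summits had 16 to 18 reads, only 2 to 4 above the lowest called peak of the same library. They fell at 2 positions, 321 to 325 bp upstream in 3 libraries and 135 and 171 bp upstream in the other two. The tRNA gene TRT2 (chromosome XI, 46735 to 46806) lies farther upstream, and no STE6 peak reached it, since they ended at 46665 or before.

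**Figure D2:**
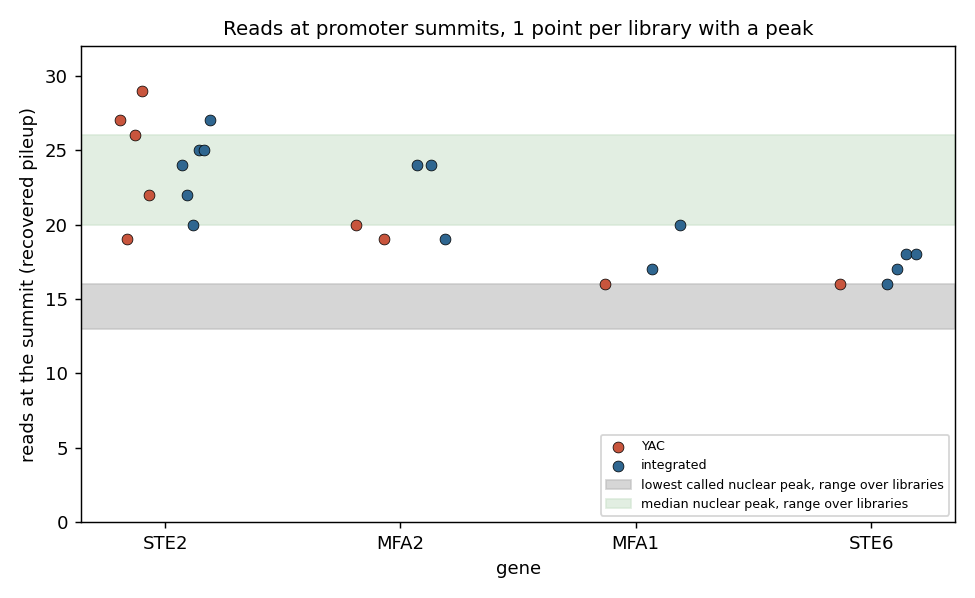
Reads at the promoter summit, recovered from the deposited fold enrichment and p-value, for each library with a peak at 4 a-specific genes (points, YAC left of integrated); the grey band spans the lowest called nuclear peak of the 12 libraries (13 to 16 reads) and the green band their median (20 to 26 reads). STE2 lay at 19 to 29 reads, MFA2 at 19 to 24, MFA1 at 16 to 20 and STE6 at 16 to 18, close to the grey band.

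The a-specific genes for pheromone turnover, adhesion and signal damping were closed in these lists. BAR1 (YIL015W, chromosome IX, 322342 to 324105) encodes the secreted protease that destroys alpha-factor. Its nearest summits upstream lay at 996 and 1186 bp, in HPRT1R integrated library 2 and HPRT1 integrated library 1, and belonged to the windows of SNL1 and VID28. A tRNA gene 1961 to 2032 bp past the BAR1 start had a peak around it in 8 libraries, with a fold enrichment of 2.93 to 4.21. AGA2 (YGL032C, chromosome VII, 436570 to 436833) encodes the binding subunit of a-agglutinin, by which a cells stick to alpha cells. The nearest summits to AGA2 were 1715 to 1911 bp upstream in 11 libraries, beyond the ribosomal protein gene RPL24A and on the side of RPL30.

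ASG7 (YJL170C, chromosome X, 101150 to 101779) encodes an a-specific protein that dampens pheromone signalling after cells have fused. It had summits within 2500 bp of its start in 2 libraries, at 745 and 836 bp downstream, past its end. SAG1 (YJR004C, chromosome X, 442909 to 444861), which encodes alpha-agglutinin, the partner of Aga2 on alpha cells, lay farthest from any summit among the 9 genes by median distance. Its nearest summit in any library was 8485 bp from the start, and its median distance over libraries was 9419 bp. The median distance over all genes was 3616.5 bp, and 17.0% of genes had a greater median distance than SAG1.

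No summit of a closed member lay just outside the window. The innermost ones outside were that of ASG7 at 745 bp downstream and that of BAR1 at 996 bp upstream, and the outermost one inside was that of STE2 at 434 bp upstream, in HPRT1R integrated library 3.

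**Figure D3:**
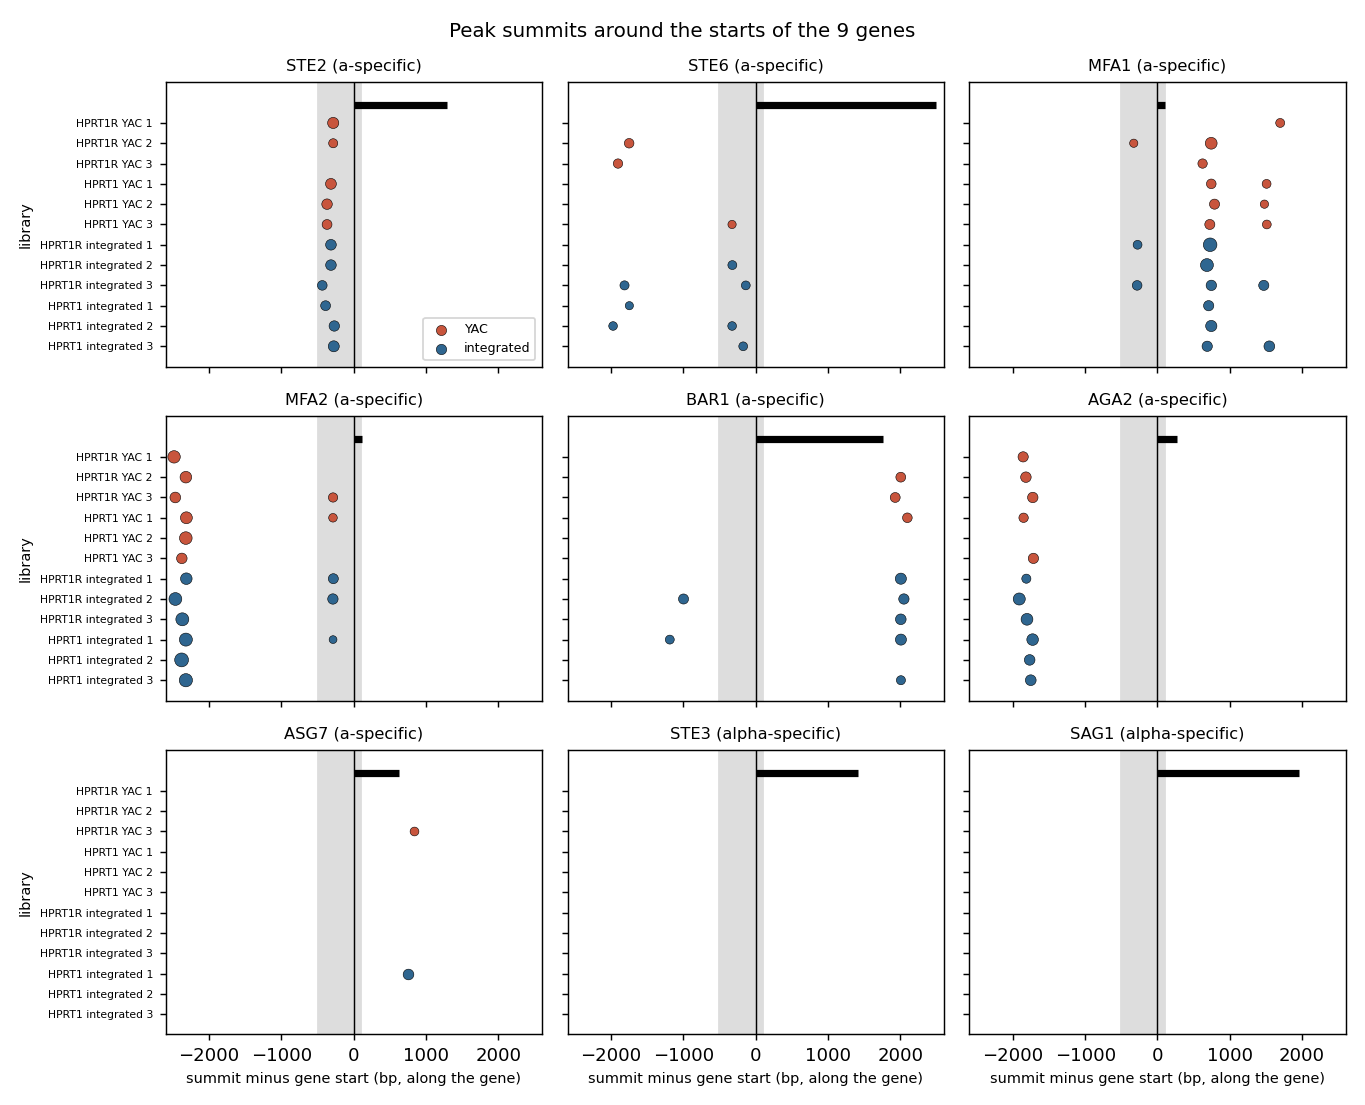
Distance of each peak summit from the gene start, in bp along the direction of the gene, for the 9 genes (panels) and 12 libraries (rows); the grey band is the promoter window, the black bar the gene (to 2500 bp), and larger points have a higher fold enrichment. STE2 summits fall in the band in 11 libraries, those of MFA2 within 6 bp, while summits near MFA1, AGA2, BAR1 and MFA2 also mark neighbouring genes, and STE3 and SAG1 have none within 2500 bp.

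In the order of open libraries with the original window, STE2 came first with 11, then STE6 and MFA2 with 5, MFA1 with 3 and the other members with 0. This order depended on the window. With 300 bp upstream and 50 bp downstream, MFA2 came first with 5, then STE2 with 4. The sign tests used the original window. Of the 36 pairs of members, 6 differed at an adjusted p under 0.05 in the exact sign test over libraries, and all 6 set STE2 against another gene. In 5 pairs the other gene was closed, with STE2 alone open in 11 libraries (adjusted p = 0.00703 each, exact sign test). These p-values only restate the count of STE2, and the tests were added after the counts were seen. The other pair was with MFA1, with STE2 alone open in 8 libraries and MFA1 alone in 0 (adjusted p = 0.0469, exact sign test). STE2 and its neighbours in the order did not pass: STE2 alone was open in 6 libraries and STE6 alone in 0 (adjusted p = 0.132), and STE2 alone in 7 and MFA2 alone in 1 (adjusted p = 0.141, exact sign tests). STE6 against MFA1 gave 4 and 2 libraries (adjusted p = 0.99) and MFA1 against a closed gene 3 and 0 (adjusted p = 0.391, exact sign tests), so the lower part of the order was not resolved with 12 libraries.

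The comparison of formats set the YAC strains in SC-Leu against the integrated strains in YPD. No a-specific gene was open in more YAC than integrated libraries. Among all protein-coding genes, the higher count of open libraries fell on the integrated side for 1112 and on the YAC side for 581. The direction alone therefore does not set the a-specific genes apart. STE2 was open in 5 YAC and 6 integrated libraries, MFA2 in 2 and 3, MFA1 in 1 and 2, and STE6 in 1 and 4. None passed Fisher's exact test with Benjamini-Hochberg adjustment over the 2040 genes open in 1 to 11 libraries (adjusted p = 1 each), where 0 genes, 0%, passed at all. In 6 against 6 libraries Fisher's exact test needs at least 89 genes at 6 against 0 before any passes. At an unadjusted p under 0.05, 3 genes (0.147%) were more often open in YAC and 8 (0.392%) in integrated libraries, and no member was among them. STE6 had the largest difference among the members (unadjusted p = 0.242, Fisher's exact test), and 8.24% of the genes tested were open in at least 3 more integrated than YAC libraries.

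Per library, 21.4% ± 7.82 of a-specific promoters were open in YAC and 35.7% ± 7.82 in integrated libraries (SD, n = 6 each). The mean share over all genes was also higher in integrated libraries, with 14.3% ± 0.688 open in YAC and 17.0% ± 2.02 in integrated libraries. When each list was limited to its 913 nuclear peaks with the smallest p-values, STE6 remained open in 1 library and MFA1 in 1, against 11 for STE2 and 4 for MFA2. STE6 and STE3 lie on chromosome XI, the chromosome that holds the integrated constructs. On it, 13.1% of promoters were open in YAC and 16.4% in integrated libraries, close to the shares of all genes. The distance of STE6 and STE3 from the integration site was not analysed here.

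The comparison of constructs set HPRT1R against HPRT1 libraries, with the media balanced. STE2 was open in 5 HPRT1R and 6 HPRT1 libraries, STE6 in 2 and 3, MFA2 in 3 and 2, and MFA1 in 3 and 0. None passed the adjusted Fisher's exact test (adjusted p = 1 each), and again 0 of 2040 genes, 0%, did. At an unadjusted p under 0.05 there was 1 gene (0.049%) more often open in HPRT1R libraries and 0 (0%) in HPRT1 libraries. For MFA1 the unadjusted p was 0.182 (Fisher's exact test), and 1.27% of the genes tested were open in at least 3 HPRT1R and no HPRT1 libraries. The share of a-specific promoters open was 31.0% ± 14.0 in HPRT1R and 26.2% ± 5.83 in HPRT1 libraries (SD, n = 6 each), against 16.1% ± 2.26 and 15.2% ± 1.88 of all genes.

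The open members were also described by features that did not define them. Promoters in divergent arrangement were open in at least 1 library for 45.2% of 3114 genes, and those behind a gene on the same strand for 28.2% of 2878 genes. STE2, STE6 and SAG1 are divergent, and 2 of these 3 were open in at least 1 library. MFA1, MFA2, BAR1, AGA2, ASG7 and STE3 follow a gene on the same strand, and 2 of these 6 were. No peak at a member reached a -log10 q of 10, and the highest, at STE2 in HPRT1R YAC library 1, was 8.25.

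The genes with the most similar pattern over the 12 libraries were also found. For STE2 it was its divergent neighbour GYP8, with the same state in 12 of 12 libraries by the shared summit, and 44 genes had that pattern. For STE6 it was YNL234W and for MFA1 the adenylate kinase gene ADK1, each the only gene with the same state in 12 of 12 libraries. For MFA2 it was the prefoldin subunit gene PAC10, with 11 of 12 libraries and 6 further genes at that count.

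Other genes of the mating pathway were mostly closed too. Of 64 further genes in 5 lists, 20 were open in at least 1 library (31.2%, beside 37% of all genes), and none passed the adjusted Fisher's exact test between formats or constructs. The lists include MATALPHA1 and MATALPHA2, which a mating type a strain does not carry at MAT. In the signalling list 8 of 19 genes (42.1%) were open in at least 1 library and 3 (15.8%) in at least 6. For all genes these shares were 37% and 15.0%. The open signalling genes included GPA1, the alpha subunit of the receptor-coupled G protein, in 6 libraries, and STE4, its beta subunit, in 7. DIG1, an inhibitor of the pheromone-response factor Ste12, was open in 11 libraries, and its summit also lay in the window of CAM1 in at least 1 of them. GPA1 and STE4 were open in 3 YAC libraries each, beside 3 integrated libraries for GPA1 and 4 for STE4. STE18, the gamma subunit, was open in 0. The scaffold STE5, the kinases STE11, FUS3 and KSS1, and FAR1, which arrests the cell cycle, were also open in 0.

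Of the 16 pheromone-induced and cell fusion genes, 5 were open in at least 1 library (31.25%, beside 37% of all genes). In at least 6 libraries 2 were open (12.5%, beside 15.0% of all genes). PRM4 was open in 10 libraries. PRM1, a membrane protein that acts in cell fusion, was open in 6, of which 5 were HPRT1R and 1 was an HPRT1 library (unadjusted p = 0.0801, adjusted p = 1, Fisher's exact test), and its summit also lay in the window of ERG24 in at least 1 library. FUS1 and AGA1, the anchor subunit of a-agglutinin, were open in 0. Of the 10 processing and export genes, 4 were open in at least 1 library (40%) and 1 in at least 6 (10%). RAM2, a subunit of the farnesyltransferase that lipid-modifies a-factor, was open in 9, with a median fold enrichment of 3.15, and its summit also lay in the window of SPT23 in at least 1 of them.

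The alpha-factor genes had few or no promoter peaks, as did most genes, with 63% of all promoters open in 0 libraries. MF(ALPHA)1, the main alpha-factor gene, was open in 0 libraries. MF(ALPHA)2, the minor one, was open in 1, with a fold enrichment of 3.11, from a summit that also lay in the window of YGL088W. Of 17 mating-type regulators and silencing genes, 2 were open in at least 1 library (11.8%, beside 37% of all genes). These were SWI5 in 2 and RME1 in 1, with summits that also lay in the windows of EKI1 and YGR045C. The 17 genes include MATALPHA1 and MATALPHA2, which a mating type a strain does not carry at MAT. The share without them was not computed. The list also includes the silent mating-type genes HMLALPHA1, HMLALPHA2, HMRA1 and HMRA2, each open in 0 libraries. MCM1 was open in 0. The MAT locus on chromosome III, annotated in R64 with the alpha alleles MATALPHA2 (199546 to 200178) and MATALPHA1 (200442 to 200969), held no summit within 2500 bp on either side in any of the 12 libraries. A mating type a strain carries other sequence at MAT, so this window does not show its own allele.

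**Figure D4:**
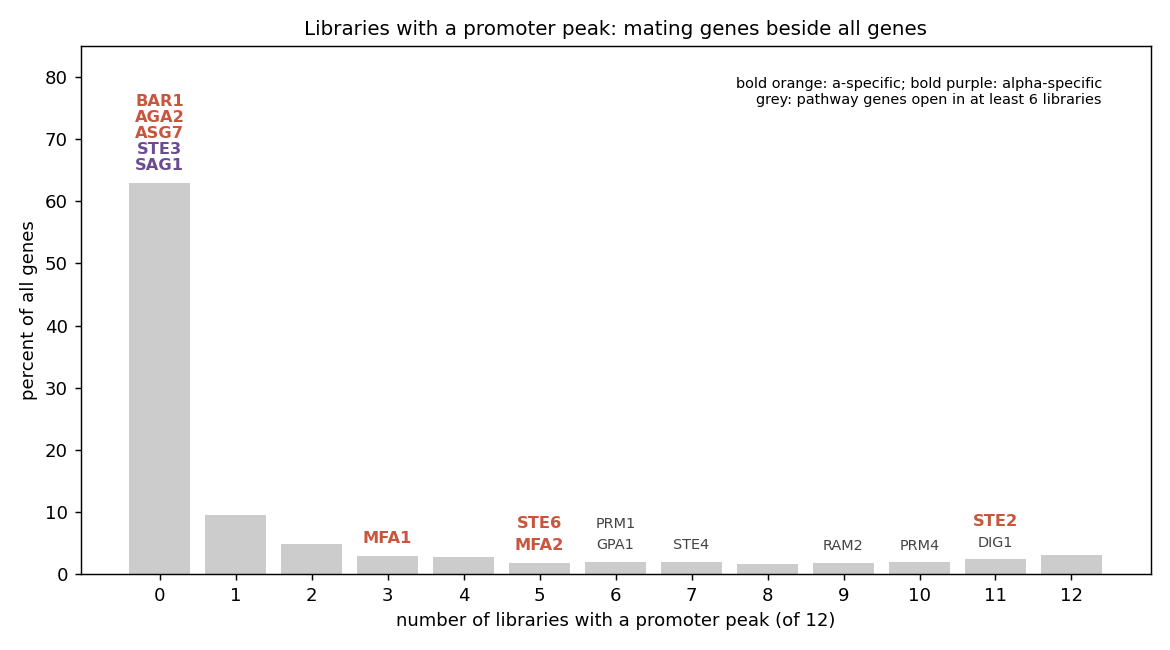
Percentage of all 6002 protein-coding genes (bars, vertical axis) by the number of libraries with a promoter peak (horizontal axis), with the 9 mating-type specific genes and the pathway genes open in at least 6 libraries written above their bar. STE2 and DIG1 stand at 11 libraries, whereas 5 of the 9 genes stand at 0, as do 63% of all genes.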

How the data were processed

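The deposited files were 12 MACS2 peak lists, 1 per library. Per the submitters' processing notes, MACS2 2.1.0 was used with Bowtie2 2.2.9, SAMtools 1.9, bcl2fastq 2.20 and deepTools 3.5.0 on build sacCer3. The handling of duplicate and multi-mapping reads and the options for peak calling were not given in the sources used here. For each peak the deposited columns gave the ratio of summit signal to local background (fold enrichment), a -log10 p-value, a -log10 q-value and the offset of the summit, all from the authors' peak caller. Fold values only described or ranked peaks within a list. The deposited score was not used.

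Gene positions came from the RefSeq table of R64, the assembly that sacCer3 denotes, and strand from systematic names. As a check, windows moved by 3000 bp to either side were open for 4.88% and 5.19% of genes, compared with 15.6% at the true positions. Whole read pileups at summits were recovered from fold enrichment and p-value by solving the Poisson tail probability that MACS2 reports, with a pseudocount of 1, to within 0.01 of the -log10 p, for 99.9% of 13052 nuclear peaks. The total depth per library is unknown.

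For each gene, the 6 and 6 libraries were compared by a two-sided Fisher's exact test, with Benjamini-Hochberg adjustment (SciPy 1.17.1). A prior check on simulated presence tables set the changed genes to open in 6 libraries against 0. It therefore says nothing about the detection of smaller differences. Pairs of members were compared with exact sign tests, added after the values were seen. The members and lists were chosen with earlier results of these data known. Pathway genes were named when open in at least 6 libraries or when differing by at least 4 between formats or constructs. The most similar gene had the most libraries in the same state, with ties broken by the closest fold percentiles. Those named at 0 libraries, the genes at 1 or 2 in short lists and the neighbouring genes were picked after their values were seen. The alternatives changed the promoter window, the use of summits, the peak threshold, the list length, the test and the libraries included. Motifs and sequences were not analysed here.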

Additional observations from a re-analysis of the deposited data

Results flagged for a closer look

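Within the 6 HPRT1 libraries, 3 values set a single library apart. Among 17 such groups checked, chance flags about 1 in 20 for values that vary continuously. HPRT1 YAC library 2 had 1 a-specific promoter open (14.3%), against 28.6% in each of the other 5 HPRT1 libraries, a difference of 1 promoter. The ratio of gap to range is 1 by construction here, since the share moves in steps of 1 of 7 promoters, and the chance rate does not apply to it. HPRT1 integrated library 3 had 18.8% of all promoters open, with 15.6% in the next HPRT1 library (ratio 0.63), and 1303 nuclear peaks, with 1072 in the next (ratio 0.733). Its own a-specific share was 28.6%, as in 4 other HPRT1 libraries. The HPRT1 libraries mix both formats and media. Among the integrated libraries alone, neither measure set a library apart (ratios 0.37 and 0.255, with a limit of 0.625).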

How the results depend on the processing

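Both alpha-specific genes, AGA2 and ASG7 stayed at 0 libraries under all 6 alternative settings of window, summit and threshold, and no alternative gave a gene past an adjusted p of 0.05 between formats or constructs. The exact permutation tests within the other factor (11 genes for format and 1 for construct at an unadjusted p under 0.05) say nothing about stability, since with 400 arrangements no p can fall under 0.005, which passes the adjustment over 2040 genes only if very many genes reach it. The a-specific share of 28.6% was 15.5% with a window of 300 bp upstream and 50 bp downstream (all genes 8.01%), 16.7% with a fold enrichment of at least 3 (all genes 11.6%) and 0% when a -log10 q of 10 was required (all genes 2.49%). In percentage points, the gap to all genes (15.6% with the original window) narrowed with the short window and the fold threshold, and reversed at that q. It also narrowed with 1000 bp upstream, to 29.8% against 23.0%, and with any overlap of peak and promoter, to 28.6% against 21.7%. With lists of equal length it narrowed to 20.2% against 13.1%. With the short window MFA2 was open in 5 libraries, STE2 in 4, and STE6 and MFA1 in 2 each, so STE2 no longer came first. With 1000 bp upstream BAR1 was open in 1. With a fold enrichment of at least 3, STE6 was open in 0, MFA1 in 1 and MFA2 in 3, and STE2 in 10. Requiring that q left STE2, STE6, MFA1 and MFA2 open in 0. With lists of equal length STE6 and MFA1 were open in 1 each. The causes were not tested, but a higher threshold leaves fewer peaks by construction. Leaving out each library in turn gave an a-specific share of 27.3% to 29.9%. Same-numbered libraries did not deviate together (correlations of -0.06 to 0.02 over 18 pairs), and with the replicate number as a block, 0 genes passed in either comparison, where 216 arrangements set a similar limit. Peaks within 2 to 4 reads of the lowest call are at the limit of what these libraries detect. This holds for the STE6 peaks and for the MFA2 peak of HPRT1 integrated library 1. It also holds for the MFA1 peaks of HPRT1R YAC library 2 and HPRT1R integrated library 1.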
